A study of Homo sapiens with 18 samples.

Results

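The genes described here encode the machinery of antigen presentation by MHC class II, and were taken as the rows of the count files whose gene identifier carries a GENCODE 29 symbol on a list of 10 names. All 10 were found among 57500 genes. The list holds the α and β chains of HLA-DR, HLA-DP and HLA-DQ (HLA-DRA, HLA-DRB1, HLA-DPA1, HLA-DPB1, HLA-DQA1 and HLA-DQB1), both chains of the peptide exchange factor HLA-DM (HLA-DMA and HLA-DMB), the invariant chain CD74 and the transactivator CIITA. Polyadenylated RNA was sequenced from the human monocytic leukaemia line THP-1, stably transduced with lentiviral particles that carried a non-target shRNA (shNT), an shRNA against NR4A2 (shNR4A2) or an shRNA against NR4A3 (shNR4A3). NR4A2 and NR4A3 are early response genes that encode orphan nuclear receptors. Cells of each line were incubated for 2 h and then kept without stimulus (control) or given 2.5 µg/ml lipopolysaccharide (LPS) for 2 h, which made 6 groups of 3 libraries, 18 in all. All 3 lines carry a lentiviral insert and were kept under puromycin. Each hairpin is represented by a single stable line, so an effect of the knockdown and a property of that line cannot be told apart. Total counts ran from 16171161 to 23929138 per library (median 19639071).

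MHC class II molecules are αβ heterodimers that carry peptides from the endosomal pathway to the cell surface, where CD4+ T cells read them. CD74 chaperones the newly made heterodimer and blocks its groove, and HLA-DM later exchanges the remaining CD74 fragment for peptide. The genes are switched on together by CIITA, a coactivator that does not itself bind DNA and is recruited to promoters by RFX, CREB and NF-Y proteins on the X and Y boxes. Interferon-γ is the classical inducer of CIITA outside professional antigen presenting cells, with IRF1 and USF1 acting at its promoter.

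Promoter stretches are printed for the class II genes in which both boxes could be found by their letters, because class II promoters are known for sharing these boxes. Promoters from RefSeq (GRCh38.p14, 250 bases before to 50 bases after each gene start) had entries for 8 of the 10 genes. The letters AGNNACNGA were searched for the X box and ATTGG for the Y box on both strands, and the choice of letters was made after these promoters had been read. On 1 strand, X letters followed within 40 bases by Y letters were found in HLA-DRB1, HLA-DQA1, HLA-DQB1 and HLA-DMA, and in the class II genes HLA-DRB5 and HLA-DOA, always with 24 or 25 bases between the boxes and no overlap. Over all 35116 promoter entries, 15.3% held the X letters, 34.6% the Y letters and 0.515% the pair in that order. Both boxes are in capitals in the following stretches.
HLA-DRB1: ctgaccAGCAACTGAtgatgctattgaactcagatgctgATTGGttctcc
HLA-DRB5: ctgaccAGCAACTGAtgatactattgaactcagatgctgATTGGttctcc
HLA-DQB1: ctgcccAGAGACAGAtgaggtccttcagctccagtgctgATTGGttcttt
HLA-DQA1: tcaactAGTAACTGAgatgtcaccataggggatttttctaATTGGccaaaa
HLA-DMA: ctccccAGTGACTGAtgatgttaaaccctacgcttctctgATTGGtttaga
HLA-DOA: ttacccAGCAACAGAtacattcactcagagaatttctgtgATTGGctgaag
On GRCh38.p14 these lie at chr6:32589884-32589933 (HLA-DRB1, minus strand), chr6:32530367-32530416 (HLA-DRB5, minus strand), chr6:32666735-32666784 (HLA-DQB1, minus strand), chr6:32637298-32637348 (HLA-DQA1, plus strand), chr6:32953166-32953216 (HLA-DMA, minus strand) and chr6:33009648-33009698 (HLA-DOA, minus strand). The X letters started 79 bases before the HLA-DRB1 start and 121 bases before the HLA-DQB1 start. The pair was not found in the window of HLA-DPA1, HLA-DPB1, HLA-DMB or CD74. The 4 members with the pair included a gene that rose in both knockdown lines (HLA-DRB1) and genes not called in any comparison (HLA-DQA1, HLA-DQB1 and HLA-DMA, of which the first and last passed under some alternative settings), as described gene by gene in the paragraphs that follow.

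**Figure D1:**
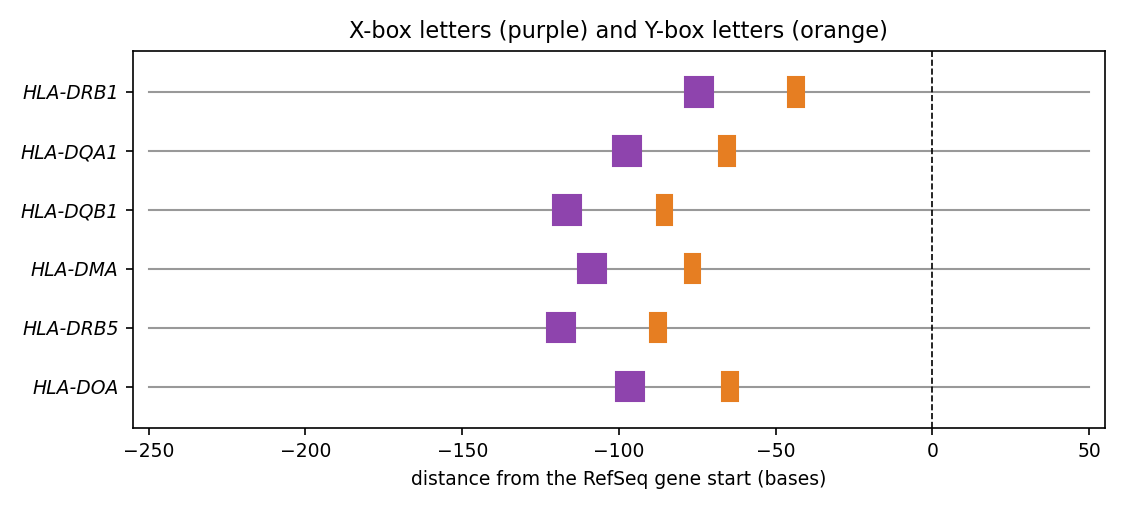
Position of the X-box letters (purple, 9 bases) and Y-box letters (orange, 5 bases) relative to the RefSeq gene start (dashed line, distance in bases) in the 6 class II promoters that held both in that order. The boxes keep the same spacing of 24 or 25 bases and sit at different distances from the start.

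Levels are compared between genes as TPM, which scales counts by merged exon length and library, computed from the deposited counts and merged exon lengths. HLA-DRB1 was the most abundant member in all 18 libraries (161 to 346 TPM, median 237) and CD74 the next in all 18 (95.3 to 193 TPM, median 126). HLA-DRA ranked 3 or 4, with 9.60 to 57.3 TPM and a median of 24.2. HLA-DQB1 (7.25 to 10.2 TPM) and HLA-DMA (4.69 to 11.1 TPM) ranked between 3 and 5, and their ranges overlapped. HLA-DPA1 (median 1.56 TPM) and HLA-DPB1 (median 1.09 TPM) stood lower, and HLA-DMB, CIITA and HLA-DQA1 were lowest, with medians of 0.420, 0.317 and 0.309 TPM and overlapping ranges. HLA-DRB1 alone made up 49.4% to 64.9% of the summed TPM of the 10 genes. The α chain HLA-DRA stood at 0.0541 to 0.186 times the HLA-DRB1 level per library (median 0.110). Every member had counts in all 18 libraries, from 2 to 23 counts for HLA-DMB and from 1107 to 2715 for HLA-DRB1, and the low members carry a large counting error. Summed over the 10 genes, the level was 308 ± 23.3 TPM in shNT control, 464 ± 56.7 in shNR4A2 control and 439 ± 29.8 in shNR4A3 control (SD, n = 3), and 330 ± 14.7, 508 ± 69.3 and 479 ± 31.2 with LPS.

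**Figure D2:**
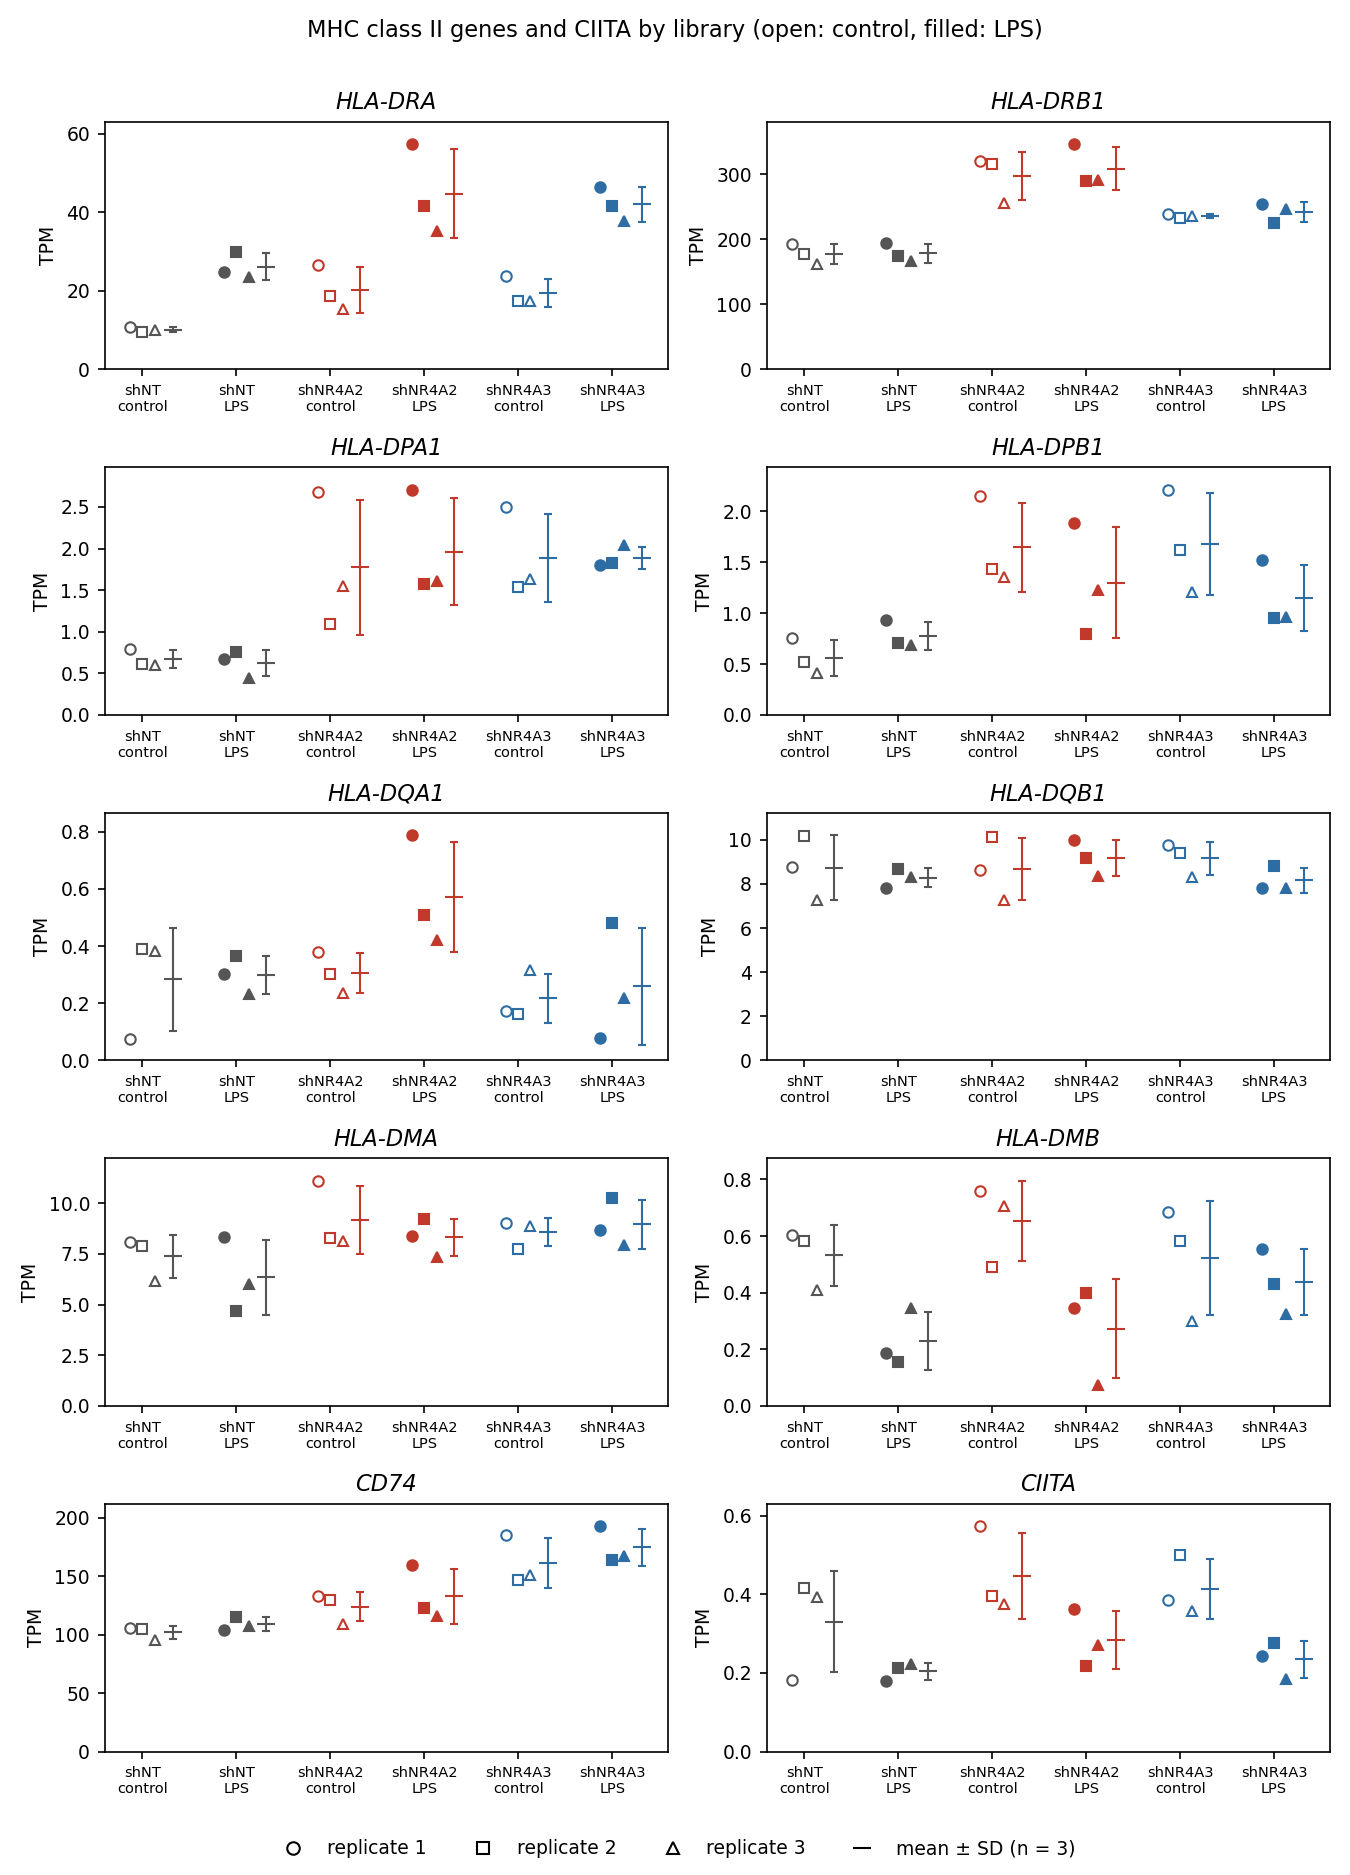
TPM of the 10 genes in each of the 18 libraries (y axis from 0, in TPM, with a scale for each gene), by line and treatment. Open symbols are control and filled symbols LPS, shapes mark the replicate number, and the bar beside each group is the mean ± SD (n = 3). HLA-DRA is higher with LPS in every line, and HLA-DRA and HLA-DRB1 are higher in all libraries of both knockdown lines than in shNT at the same treatment.

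Some reads of these genes cannot be assigned with certainty. HLA-DRB1 and HLA-DRB5 are close paralogs, and the deposited model of HLA-DRB1 also shares 70 exon bases with the pseudogene HLA-DRB6. On their own strand, HLA-DMA shares 174 exon bases and HLA-DMB 438 with AL645941.2, a gene with 0 counts over the 18 libraries. HLA-DPA1 and HLA-DPB1 share 96 exon bases on opposite strands, HLA-DQB1 shares 241 with its antisense gene, and CIITA shares 669 with DEXI and 167 with AC133065.1 on the opposite strand. HLA-DMA shares 55 bases with BRD2, which had 172514 counts over the 18 libraries against 2006 for HLA-DMA. Whether the counting used strand is not given in the sources used here, so reads in those bases cannot be told apart. The reference genome carries a single HLA haplotype, and whether THP-1 reads with other alleles were lost was not tested.

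The hairpin targets were lower in their own lines. NR4A2 stood at 4.16, 2.83 and 4.08 TPM in shNT control and at 1.82, 1.63 and 2.41 in shNR4A2 control, a fall by 0.91 on the log2 scale (SE 0.228, adjusted p = 0.0359, edgeR quasi-likelihood test with Benjamini-Hochberg adjustment over all genes). With LPS it stood at 62.2, 74.7 and 51.3 TPM in shNT and 20.5, 28.3 and 14.8 in shNR4A2 (log2 fold change -1.52, SE 0.192, adjusted p = 0.00265). NR4A3 stood at 0.556, 0.693 and 0.512 TPM in shNT control and 0.158, 0.107 and 0.0315 in shNR4A3 control (log2 fold change -2.47, SE 0.490, adjusted p = 0.00767). With LPS it stood at 30.9, 32.3 and 31.9 TPM in shNT and 17.0, 18.2 and 16.7 in shNR4A3 (log2 fold change -0.82, SE 0.080, adjusted p = 0.000556). NR4A2 in the shNR4A3 line stood at 2.51, 2.97 and 3.31 TPM in control and 41.8, 60.7 and 38.3 with LPS, below shNT in each same-numbered LPS pair. Its log2 fold changes there were -0.29 (adjusted p = 0.494) and -0.36 (adjusted p = 0.198, unadjusted p = 0.0422 by edgeR), and those of NR4A3 in the shNR4A2 line were 0.68 (adjusted p = 0.292) and 0.16 (adjusted p = 0.377).

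The knockdown lines were compared with shNT at each treatment to ask how class II expression differs when NR4A2 or NR4A3 is depleted. In both lines, with and without LPS, both HLA-DR chains and HLA-DPA1 were higher than in shNT, and no member was called lower. In shNR4A2 against shNT without LPS, 4 of the 10 members rose (HLA-DRA, HLA-DRB1, HLA-DPA1 and HLA-DPB1), where 6.45% of all 15800 genes tested were called in either direction and 3.63% higher. With LPS, 3 of the 9 members tested rose in shNR4A2 (HLA-DRA, HLA-DRB1 and HLA-DPA1), against 6.96% of all genes in either direction and 4.31% higher. In shNR4A3 against shNT without LPS, 5 of 10 members rose (the same 4 and CD74), against 7.23% of all genes in either direction and 3.91% higher. With LPS, 4 of 9 members rose in shNR4A3 (HLA-DRA, HLA-DRB1, HLA-DPA1 and CD74), against 6.45% in either direction and 3.99% higher. The split of all genes called in that comparison, 622 higher and 383 lower, became 476 and 455 with library totals in place of TMM. In shNR4A3 control the same setting turned the split from 599 higher and 509 lower to 500 and 543. With the replicate number as a block, 5 members were called in each of the 4 comparisons, all higher, against 23.6%, 28.1%, 14.8% and 21.8% of all genes in either direction. The median log2 fold change of the members tested was 0.39, 0.79, 0.42 and 0.54 in these 4 comparisons, where that of all genes tested lay between -0.01 and 0.00. On the CPM scale, 13.2%, 14.1%, 13.1% and 13.6% of all genes tested had every knockdown library above every shNT library in these comparisons, which is the background for each gene whose groups did not overlap. The shNR4A2 and shNR4A3 comparisons use the same shNT libraries, so they stand side by side and are not independent of each other. RNA came from bulk cells, so more RNA per cell and a larger share of cells that carry it cannot be told apart.

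**Figure D3:**
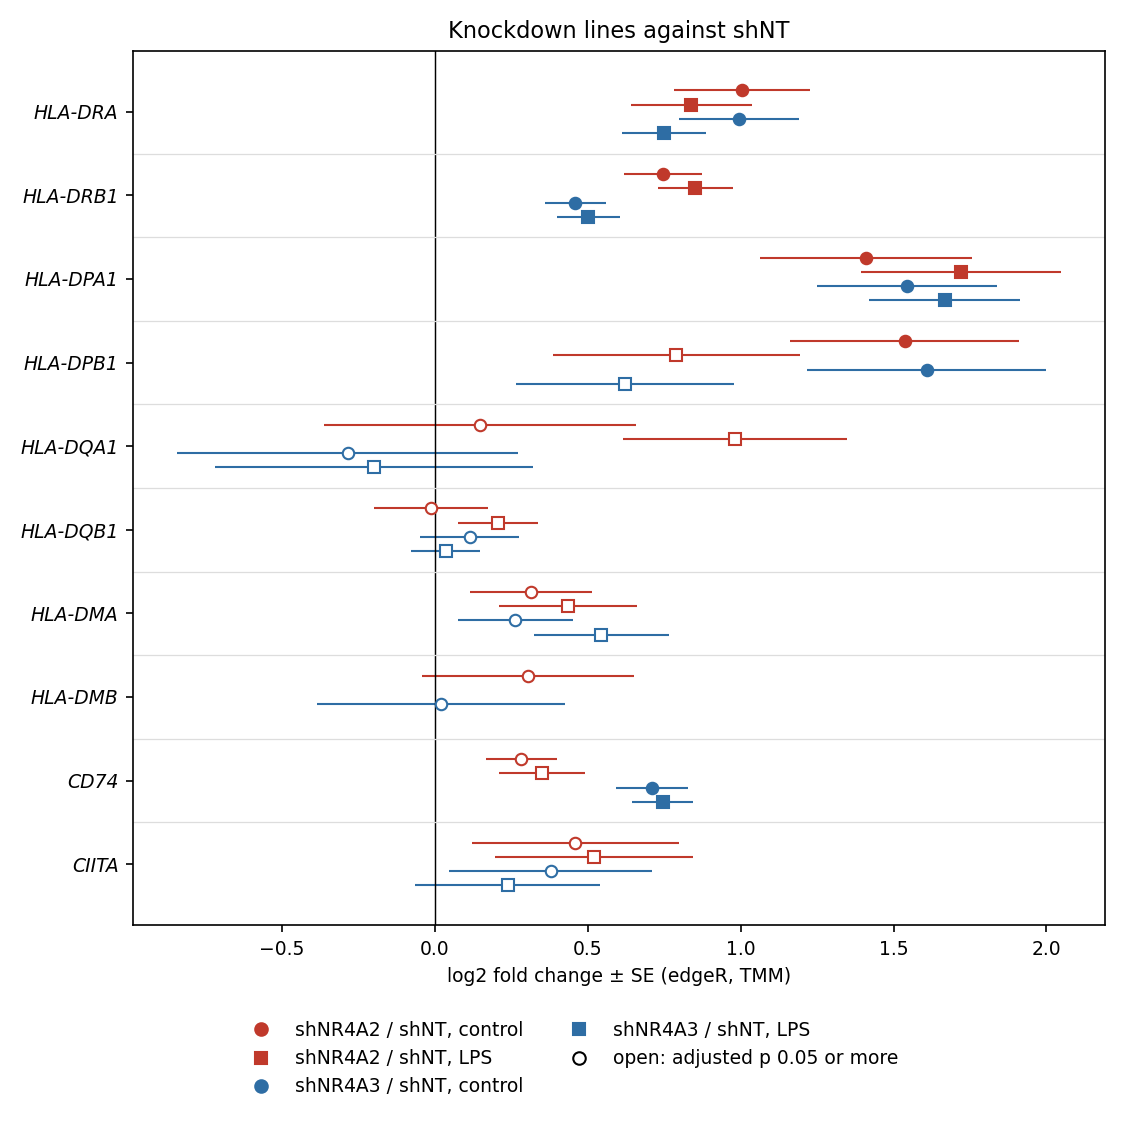
Log2 fold change ± SE (edgeR, x axis) of each member in shNR4A2 (red) and shNR4A3 (blue) against shNT, in control (circles) and LPS (squares). Filled symbols are past adjusted p = 0.05, and members without a symbol were not tested there. All filled symbols lie to the right of 0.

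Markers of the THP-1 lineage moved with the knockdown too. Of 9 monocytic markers, 3 rose in shNR4A2 control (LYZ, CD14 and CSF1R), 2 with LPS (LYZ and CSF1R), 5 in shNR4A3 control and 4 with LPS. None fell, and 3.63%, 4.31%, 3.91% and 3.99% of all genes were called higher. In the same order DESeq2 called 4, 3, 3 and 5 of the 9 markers and the replicate block, with its larger share of all genes given above, 7, 5, 5 and 6, so these counts give no order of the lines. DESeq2 did not call CD14 (adjusted p = 0.181) or ITGAM (adjusted p = 0.0635) in shNR4A3 control. LYZ stood at 192 ± 13.6 TPM (SD, n = 3) in shNT control, 615 ± 134 in shNR4A2 and 883 ± 167 in shNR4A3, and CSF1R at 85.0 ± 14.3, 145 ± 15.1 and 166 ± 13.3. The sum over the 9 markers was 2143 ± 191 TPM in shNT control, 2616 ± 112 in shNR4A2 and 3123 ± 224 in shNR4A3, with CEBPA the most abundant. Their part in the class II differences was not tested.

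HLA-DRA (chr6:32439842-32445046, plus strand) encodes the HLA-DR α chain, which pairs with every DR β chain. Its shNT control libraries stood at 10.7, 9.60 and 10.1 TPM. In shNR4A2 control it stood at 26.7, 18.8 and 15.3 TPM, and in shNR4A3 control at 23.7, 17.3 and 17.4. Every library of both knockdown lines was above every shNT library, and replicate 1 was the highest in each knockdown line. The rise over shNT was 1.00 on the log2 scale in shNR4A2 (SE 0.222, adjusted p = 0.0202) and 0.99 in shNR4A3 (SE 0.196, adjusted p = 0.00753). With LPS the libraries of shNT stood at 24.8, 30.0 and 23.5 TPM, those of shNR4A2 at 57.3, 41.7 and 35.1, and those of shNR4A3 at 46.5, 41.6 and 37.8. The groups again did not overlap, and the log2 fold changes over shNT were 0.84 (SE 0.197, adjusted p = 0.0354) in shNR4A2 and 0.75 (SE 0.137, adjusted p = 0.0123) in shNR4A3. Between libraries of the same replicate number, HLA-DRA was 1.51 to 2.49 times the shNT level in shNR4A2 control and 1.72 to 2.21 times in shNR4A3 control. In shNR4A2 the control call was lost without shNT replicate 2 (adjusted p = 0.0616), shNT replicate 3 (0.0754) or shNR4A2 replicate 1 (log2 fold change 0.74, adjusted p = 0.0725), and the LPS call without shNT replicate 1 (0.116), 2 (0.0849) or 3 (0.117) or shNR4A2 replicate 1 (log2 fold change 0.58, adjusted p = 0.0757). In shNR4A3 the control call held without any library in turn, and the LPS call was lost without shNT replicate 3 (adjusted p = 0.0526).

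HLA-DRB1 (chr6:32552990-32589848, minus strand) encodes the main HLA-DR β chain, the most variable part of the HLA-DR dimer. It stood at 193, 177 and 161 TPM in shNT control, at 320, 315 and 255 in shNR4A2 control and at 239, 233 and 235 in shNR4A3 control. With LPS it stood at 195, 174 and 166 TPM in shNT, at 346, 289 and 291 in shNR4A2 and at 254, 224 and 247 in shNR4A3. No knockdown library overlapped the shNT range at either treatment, and the shNR4A2 libraries lay above those of shNR4A3 with LPS, while in control both lines overlapped on the CPM scale. The rise over shNT was 0.75 (SE 0.127, adjusted p = 0.00521) in shNR4A2 control and 0.85 (SE 0.122, adjusted p = 0.00443) in shNR4A2 with LPS, and both calls held without any library in turn. In shNR4A3 it was 0.46 (SE 0.10, adjusted p = 0.0138) in control and 0.50 (SE 0.103, adjusted p = 0.0201) with LPS. The shNR4A3 control call was lost without shNT replicate 3 (adjusted p = 0.0646), shNR4A3 replicate 1 (0.0518) or shNR4A3 replicate 3 (0.0543). The shNR4A3 LPS call was lost without shNT replicate 2 (0.0960) or 3 (0.0739) or shNR4A3 replicate 1 (0.0779) or 3 (0.0802).

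HLA-DRB5, a paralog that encodes another DR β chain and was not on the list of 10, showed the same order. Its mean level was 51.0 ± 5.59 TPM (SD, n = 3) in shNT control, 88.4 ± 10.0 in shNR4A2 control and 73.6 ± 4.33 in shNR4A3 control, and log2 fold changes over shNT were 0.79 (adjusted p = 0.00575) and 0.58 (adjusted p = 0.0144). With LPS they were 0.78 (adjusted p = 0.0163) and 0.54 (adjusted p = 0.0371). HLA-DRB1 held 74.8% to 79.0% of the TPM of HLA-DRB1 and HLA-DRB5 in every library, so the split of reads between both paralogs hardly moved. With the counts of HLA-DRB1, HLA-DRB5 and HLA-DRB6 summed, the HLA-DR β call was made in the same 4 comparisons. Of the other 8 class II genes and pseudogenes, HLA-DPA2 had no count in any library and HLA-DPB2 had counts in 2, while HLA-DOA and HLA-DOB, the chains of the HLA-DM inhibitor HLA-DO, reached at most 0.422 and 0.745 TPM.

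HLA-DPA1 (chr6:33064569-33080775, minus strand) and HLA-DPB1 (chr6:33075926-33087201, plus strand) encode the α and β chains of HLA-DP and had the largest log2 fold changes among the members in control, at low levels. HLA-DPA1 stood at 0.794, 0.616 and 0.596 TPM in shNT control, at 2.68, 1.09 and 1.55 in shNR4A2 control and at 2.50, 1.53 and 1.63 in shNR4A3 control, with no overlap between shNT and either knockdown line. It rose by 1.41 (SE 0.345, adjusted p = 0.0326) in shNR4A2 and 1.54 (SE 0.295, adjusted p = 0.0062) in shNR4A3. With LPS it stood at 0.667, 0.752 and 0.448 TPM in shNT, at 2.71, 1.58 and 1.61 in shNR4A2 and at 1.80, 1.82 and 2.04 in shNR4A3. The LPS differences were 1.72 (SE 0.327, adjusted p = 0.0155) and 1.67 (SE 0.247, adjusted p = 0.00438) on the log2 scale, again with no overlap. Both shNR4A3 calls of HLA-DPA1 held without any library in turn. The shNR4A2 control call was lost without shNT replicate 1 (adjusted p = 0.0579), 2 (0.0865) or 3 (0.118) or shNR4A2 replicate 1 (log2 fold change 0.97, adjusted p = 0.120), and the LPS call without shNT replicate 1 (0.0549), 2 (0.0501) or 3 (0.0657).

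HLA-DPB1 stood at 0.755, 0.522 and 0.409 TPM in shNT control, at 2.15, 1.43 and 1.36 in shNR4A2 control and at 2.21, 1.62 and 1.21 in shNR4A3 control, which rest on 6 to 39 counts per library over all 18. The groups did not overlap, and the rise over shNT was 1.54 (SE 0.374, adjusted p = 0.0318) in shNR4A2 and 1.61 (SE 0.392, adjusted p = 0.0247) in shNR4A3. Both calls missed the threshold with DESeq2 (adjusted p = 0.0580 and 0.0640) and without shNT replicate 2 (0.0987 and 0.0915) or 3 (0.141 and 0.108). They were also lost without shNR4A2 replicate 1 (0.125), and without shNR4A3 replicate 1 (0.122) or 2 (0.0520). With LPS, HLA-DPB1 stood at 0.937, 0.710 and 0.692 TPM in shNT, at 1.88, 0.796 and 1.22 in shNR4A2 and at 1.52, 0.958 and 0.960 in shNR4A3. The shNR4A2 range then overlapped that of shNT and the shNR4A3 range lay just above it, and the log2 fold changes of 0.79 (SE 0.405, adjusted p = 0.284) and 0.62 (SE 0.355, adjusted p = 0.333) did not pass the test.

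HLA-DQA1 (chr6:32628179-32647062, plus strand) and HLA-DQB1 (chr6:32659467-32668383, minus strand) encode the HLA-DQ heterodimer, and neither passed the test in a knockdown comparison. HLA-DQB1 lay between 7.25 and 10.2 TPM in all 18 libraries, with group means from 8.16 to 9.19, and its 4 log2 fold changes over shNT ran from -0.01 to 0.21 with SEs of 0.112 to 0.185. HLA-DQA1 had 3 to 27 counts per library. Its largest difference was in shNR4A2 with LPS, where it stood at 0.788, 0.508 and 0.420 TPM against 0.302, 0.364 and 0.232 in shNT (log2 fold change 0.98, SE 0.368, adjusted p = 0.148). The other 3 comparisons gave 0.15, -0.29 and -0.20, with SEs of 0.510, 0.557 and 0.522.

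HLA-DMA (chr6:32948613-32969094, minus strand) and HLA-DMB (chr6:32934629-32941070, minus strand) encode the exchange factor that removes the CD74 remnant. HLA-DMA stood at 8.11, 7.89 and 6.15 TPM in shNT control, at 11.1, 8.28 and 8.12 in shNR4A2 control and at 9.05, 7.77 and 8.88 in shNR4A3 control. The ranges of shNT and each knockdown line nearly touched or overlapped, and no comparison passed the test. Its log2 fold changes over shNT were 0.31 and 0.26 in control, and 0.44 (SE 0.227, adjusted p = 0.290) and 0.54 (SE 0.220, adjusted p = 0.175) with LPS, in shNR4A2 and shNR4A3 respectively. With the replicate number as a block, both LPS differences of HLA-DMA passed (adjusted p = 0.0375 and 0.0439). HLA-DMB had 2 to 23 counts per library, passed the filter on low counts in the control but not the LPS comparisons with shNT, and differed from shNT there by 0.31 (SE 0.347) and 0.02 (SE 0.404).

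CD74 (chr5:150401637-150412929, minus strand), the invariant chain, rose in shNR4A3, and in shNR4A2 was called with the replicate block alone. It stood at 106, 105 and 95.3 TPM in shNT control, at 133, 129 and 109 in shNR4A2 control and at 185, 146 and 151 in shNR4A3 control. With LPS it stood at 104, 115 and 108 TPM in shNT, at 160, 122 and 116 in shNR4A2 and at 193, 164 and 167 in shNR4A3. All shNR4A3 libraries were above all shNT libraries, and the rise was 0.71 (SE 0.118, adjusted p = 0.00237) in control and 0.74 (SE 0.10, adjusted p = 0.003) with LPS. These calls held without any library in turn. The shNR4A2 libraries lay just above those of shNT in TPM, but in control overlapped them on the CPM scale. Their log2 fold changes over shNT were 0.28 (SE 0.115, adjusted p = 0.183) in control and 0.35 (SE 0.139, adjusted p = 0.17) with LPS. With the replicate number as a block they were 0.28 (adjusted p = 0.00559) and 0.33 (adjusted p = 0.00105), both past the threshold, and CD74 was higher than shNT in 3 of 3 same-numbered pairs at each treatment.

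CIITA (chr16:10866222-10932281, plus strand), the transactivator of the other members, passed the test in no comparison. It had 15 to 54 counts per library and 0.180 to 0.573 TPM. The control libraries stood at 0.182, 0.416 and 0.393 TPM in shNT, at 0.573, 0.394 and 0.374 in shNR4A2 and at 0.385, 0.499 and 0.357 in shNR4A3. With LPS they stood at 0.180, 0.211 and 0.222 TPM in shNT, at 0.362, 0.217 and 0.271 in shNR4A2 and at 0.242, 0.276 and 0.185 in shNR4A3. All of these knockdown ranges overlapped those of shNT. The log2 fold changes over shNT were 0.46 (SE 0.339, adjusted p = 0.488) and 0.52 (SE 0.324, adjusted p = 0.381) in shNR4A2 and 0.38 (SE 0.332, adjusted p = 0.575) and 0.24 (SE 0.302, adjusted p = 0.680) in shNR4A3, control first. These results do not show that CIITA was the same in the lines.

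Direct comparison of shNR4A2 with shNR4A3 asked whether the lines differ from each other, and none of the 10 members tested in control and none of the 9 tested with LPS was called by edgeR or DESeq2, where 3.08% and 2.33% of all genes were called. Of all genes, 10.4% and 12% had every shNR4A2 library above every shNR4A3 library on the CPM scale at these treatments, and 9.12% the reverse in control. At an unadjusted p under 0.05 by edgeR there were 2 members at each treatment, HLA-DRB1 and CD74. Of all genes tested, 2260 of 15584 in control and 2773 of 15539 with LPS were under that threshold, so 2 members are not set apart from all genes. HLA-DRB1 was higher in shNR4A2 than in shNR4A3 by 0.29 (SE 0.117, adjusted p = 0.266) in control and 0.35 (SE 0.128, adjusted p = 0.200) with LPS. CD74 went the other way, with log2 values of -0.43 (SE 0.131, adjusted p = 0.116) and -0.39 (SE 0.157, adjusted p = 0.243). The CD74 libraries of both lines did not overlap in control, while with LPS they overlapped on the CPM scale. In same-numbered pairs CD74 was 0.717 to 0.884 times the shNR4A3 level in control and 0.697 to 0.830 times with LPS, lower in 3 of 3 pairs each. With the replicate block CD74 was called at both treatments (adjusted p = 0.00721 in control and 0.000329 with LPS) and HLA-DRB1 with LPS (adjusted p = 0.00085), which made 1 of 10 and 2 of 9 members called, near the 11.6% and 23.6% of all genes called with the block. Without the filter on low counts CD74 was called at both treatments (adjusted p = 0.0275 and 0.0334). For HLA-DRA the difference between the lines was 0.01 (SE 0.231) in control and 0.09 (SE 0.200) with LPS, and for HLA-DPA1 it was -0.13 (SE 0.325) and 0.05 (SE 0.274). HLA-DQA1 had 0.43 (SE 0.436) and 1.18 (SE 0.525), HLA-DPB1 -0.07 (SE 0.334) and 0.17 (SE 0.412), and CIITA 0.08 (SE 0.282) and 0.29 (SE 0.325). HLA-DQB1 and HLA-DMA lay between -0.13 and 0.17, and HLA-DMB, tested in control alone, had 0.29 (SE 0.390).

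LPS was compared with control within each line. HLA-DRA rose in all 3 lines and, without a block, was the only member called in every line. With the replicate number as a block, HLA-DRB1 and CD74 were called in every line too. The block called 32%, 30.1% and 39.4% of all genes in shNT, shNR4A2 and shNR4A3. In shNT 2 of 10 members rose (HLA-DRA and CD74), against 24.9% of all genes called in either direction and 11.6% higher. In shNR4A2 1 of 10 and in shNR4A3 1 of 9 rose, HLA-DRA in each, against 19.3% and 28.1% of all genes in either direction and 9.23% and 13.1% higher. All member calls were rises, so the shares to read them against are the higher ones. With library totals in place of TMM, the genes called in shNT, shNR4A2 and shNR4A3 were 1109 higher and 4158 lower, 1009 and 3528, and 1317 and 4494, against 1820 and 2089, 1455 and 1595, and 2007 and 2305 with TMM. On the CPM scale 19.1%, 17.1% and 20.7% of all genes had every LPS library above every control library. From the library values given for each line, HLA-DRA with LPS did not overlap control in any line. Its log2 fold change was 1.58 (SE 0.158, adjusted p = 5.18e-06) in shNT, 1.41 (SE 0.244, adjusted p = 0.0013) in shNR4A2 and 1.33 (SE 0.178, adjusted p = 0.000232) in shNR4A3, and each call held without any library in turn. Between same-numbered libraries the HLA-DRA TPM with LPS was 2.31 to 3.12 times control in shNT, 2.15 to 2.30 times in shNR4A2 and 1.96 to 2.40 times in shNR4A3. Marker sums moved with LPS as well. The 9 monocytic markers summed to 2143 ± 191 TPM (SD, n = 3) in shNT control and 1360 ± 141 with LPS, to 2616 ± 112 and 1946 ± 140 in shNR4A2, and to 3123 ± 224 and 2270 ± 155 in shNR4A3. CEBPA, a myeloid transcription factor and the most abundant of them in control, fell, with log2 fold changes of -2.12, -1.89 and -2.39 in shNT, shNR4A2 and shNR4A3, while SPI1 rose by 0.61, 0.76 and 0.79. In all, 3, 2 and 3 of the 9 fell and 2, 1 and 1 rose. Dendritic cell markers summed to 1.64 ± 0.271 TPM in shNT control and 2.91 ± 0.348 with LPS, to 4.73 ± 1.96 and 8.37 ± 2.85 in shNR4A2 and to 3.92 ± 0.743 and 7.10 ± 2.48 in shNR4A3. LAMP3, the most abundant of them, was the only marker called in each line, and the only 1 tested in shNT. The median log2 fold change of the 3 markers tested was -0.34 in shNR4A2 and -0.19 in shNR4A3, so these sums do not speak for the other markers. The part of these shifts in the HLA-DRA values was not tested.

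The scale matters for LPS, since the TPM ratio of the median gene lay below its edgeR fold change by 0.22 on the log2 scale in shNT, 0.27 in shNR4A2 and 0.23 in shNR4A3. The partner chain HLA-DRB1, whose LPS and control libraries in shNT overlapped in TPM but in all 3 lines lay apart, with LPS higher, on the CPM scale, had edgeR log2 fold changes of 0.22 (SE 0.104, adjusted p = 0.139), 0.33 (SE 0.144, adjusted p = 0.141) and 0.27 (SE 0.101, adjusted p = 0.0721) in shNT, shNR4A2 and shNR4A3. The ratio of HLA-DRA to HLA-DRB1, which does not depend on that scale, was 0.0574 ± 0.00453 (SD, n = 3) in shNT control and 0.147 ± 0.0230 with LPS. In shNR4A2 it was 0.0676 ± 0.0136 and 0.144 ± 0.0224, and in shNR4A3 0.0825 ± 0.0144 and 0.174 ± 0.0180. Control and LPS ratios did not overlap in any line (exact permutation test, two-sided p = 0.1 in each, the smallest that 3 against 3 allows). Against shNT the ratio overlapped for shNR4A2 (exact permutation p = 0.3 in control and 0.8 with LPS) and, with LPS, for shNR4A3 (exact permutation p = 0.2), whereas the shNR4A3 control ratios lay above those of shNT (exact permutation p = 0.1).

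**Figure D4:**
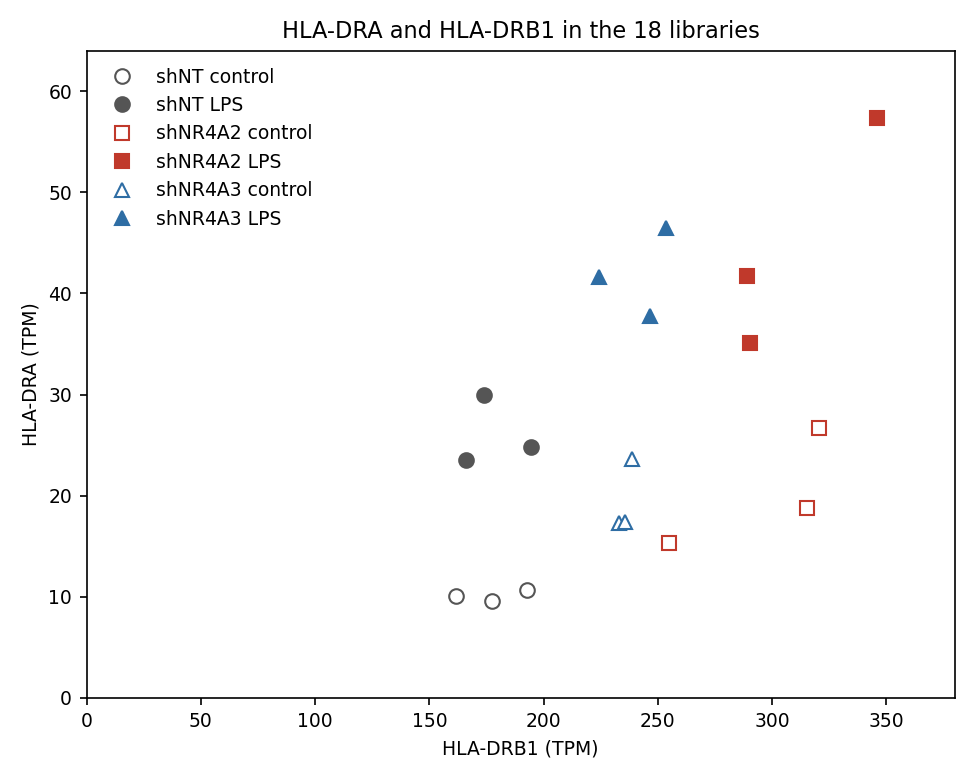
HLA-DRA against HLA-DRB1, both in TPM, in the 18 libraries (open: control, filled: LPS, circles shNT, squares shNR4A2, triangles shNR4A3). LPS libraries sit above the control libraries of the same line with little shift along the HLA-DRB1 axis, and knockdown libraries sit to the right of shNT.

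CD74 rose by 0.31 with LPS in shNT (SE 0.090, adjusted p = 0.0214), a call that was lost with library totals in place of TMM (log2 fold change 0.14, adjusted p = 0.240), in a fit over all 18 libraries (adjusted p = 0.150) and without shNT control replicate 3 (0.0958), shNT LPS replicate 2 (0.0548) or shNT LPS replicate 3 (0.0544). In the knockdown lines its values were 0.37 (SE 0.157, adjusted p = 0.120) and 0.34 (SE 0.131, adjusted p = 0.0736). With the replicate block 4 members were called in shNR4A2 (HLA-DRA, HLA-DRB1, HLA-DQA1 and CD74, adjusted p = 0.0461, 0.0240 and 0.0308 for the last 3) and 3 in shNR4A3 (HLA-DRA, HLA-DRB1 with 0.0140 and CD74 with 0.00161). These 4 of 10 and 3 of 9 stand against 30.1% and 39.4% of all genes called with the block. In shNT, where same-numbered libraries did not all deviate together, the block called 3 of 10 against 32% of all genes. HLA-DQA1 had a log2 fold change of 1.15 in shNR4A2 (SE 0.382, adjusted p = 0.0534), which passed without shNR4A2 LPS replicate 3 (0.0477) or with its counts summed with HLA-DQA2 (0.03). In shNR4A3, HLA-DRB1 passed without shNR4A3 LPS replicate 2 (0.0118), and CD74 without that library (0.0202) or without shNR4A3 control replicate 1 (0.0168).

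CIITA with LPS was at 0.551 to 0.724 times its control TPM in same-numbered pairs of shNR4A2 and 0.518 to 0.629 times in shNR4A3. In shNT it was at 0.507 to 0.992 times, and the LPS and control ranges overlapped. Its edgeR log2 fold changes were -0.45 (SE 0.358, adjusted p = 0.403), -0.39 (SE 0.325, adjusted p = 0.447) and -0.59 (SE 0.292, adjusted p = 0.156) and did not pass in any line. HLA-DMB had log2 fold changes of -0.96 (SE 0.452, adjusted p = 0.144) in shNT, -1.03 (SE 0.485, adjusted p = 0.169) in shNR4A2 and -0.03 (SE 0.423, adjusted p = 0.968) in shNR4A3, from its few counts. HLA-DPB1 had 0.67 (SE 0.409), -0.08 (SE 0.381) and -0.32 (SE 0.359), and HLA-DQB1 and HLA-DMA lay between 0.00 and 0.35 in all 3 lines, none past the test. HLA-DPA1 had 0.10 (SE 0.32), 0.41 (SE 0.346) and 0.22 (SE 0.254), and HLA-DQA1, not tested in shNR4A3, had 0.32 (SE 0.499) in shNT, also not past it.

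**Figure D5:**
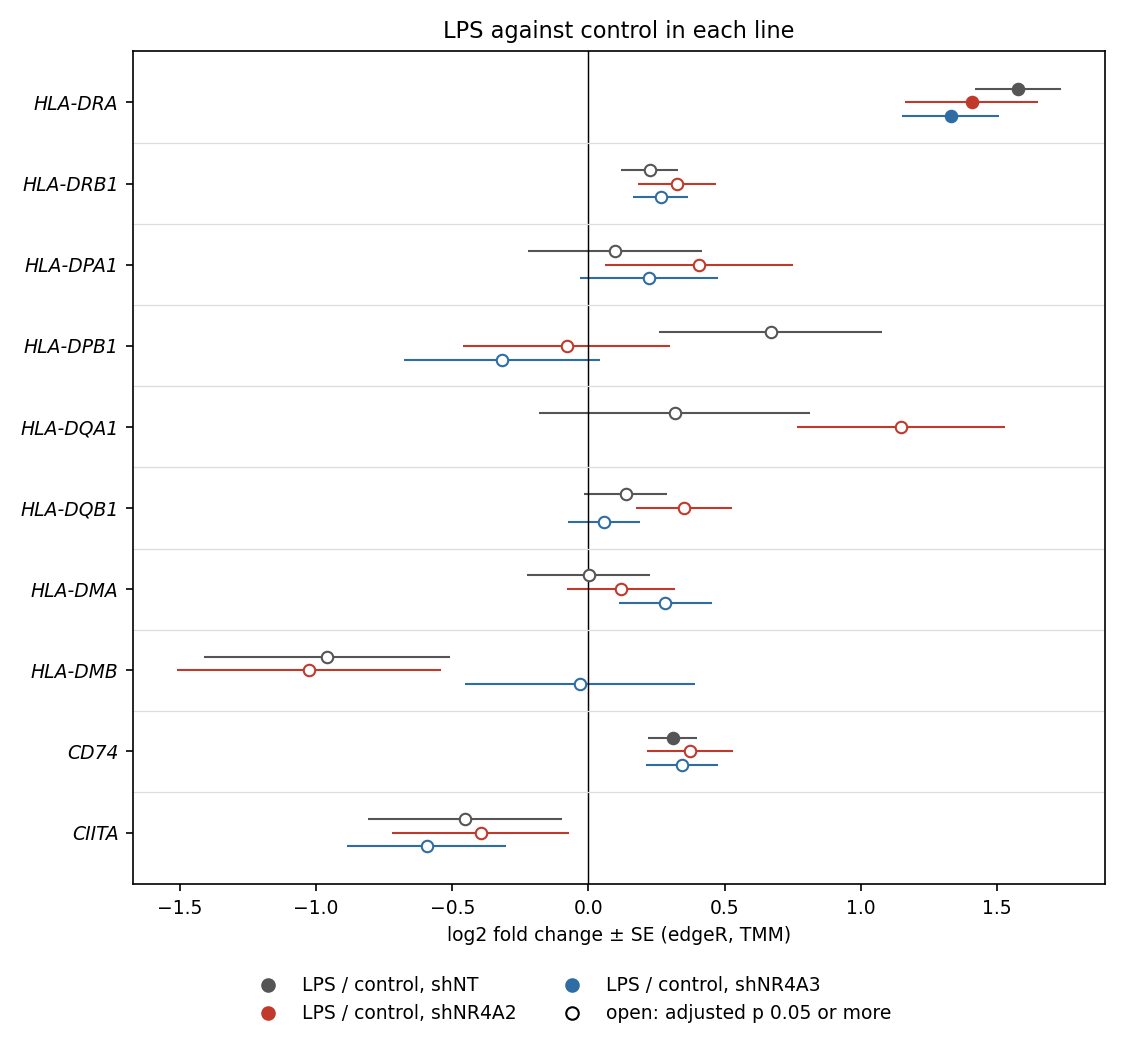
Log2 fold change ± SE (edgeR, x axis) of each member with LPS against control in shNT (grey), shNR4A2 (red) and shNR4A3 (blue). Filled symbols are past adjusted p = 0.05. HLA-DRA is filled in all 3 lines, CD74 in shNT only, and CIITA lies to the left of 0 in all 3 with open symbols.

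Whether the LPS response of a member differed between a knockdown line and shNT was tested by an interaction term over 12 libraries. No member was called in either line by edgeR or DESeq2, and none had an unadjusted p under 0.05. Over all genes edgeR called 0 (0%) in each, with 365 genes at an unadjusted p under 0.05 for shNR4A2 and 824 for shNR4A3, while DESeq2 called 2 and 10. The interaction of HLA-DRA was -0.16 (SE 0.314) for shNR4A2 and -0.25 (SE 0.231) for shNR4A3, and that of CD74 was 0.07 (SE 0.193) and 0.03 (SE 0.167). For shNR4A3 the terms of the low members HLA-DPB1 and HLA-DMB were larger in size, at -0.99 (SE 0.537) and 0.93 (SE 0.625). For shNR4A2 those of HLA-DPB1 and HLA-DQA1 were -0.74 (SE 0.571) and 0.84 (SE 0.665), and that of HLA-DMB was -0.06 (SE 0.726). HLA-DRB1, HLA-DPA1, HLA-DQB1, HLA-DMA and CIITA lay between -0.14 and 0.31 in both lines, and HLA-DQA1 had 0.09 (SE 0.828) for shNR4A3.

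The factors that bring CIITA to class II promoters were not called in the knockdown comparisons without the replicate block. Of the 7 genes of RFX (RFX5, RFXAP and RFXANK), CREB1 and NF-Y (NFYA, NFYB and NFYC), edgeR and DESeq2 called 0 in each of the 4, with 1, 2, 0 and 2 at an unadjusted p under 0.05 (shNR4A2 control and LPS, then shNR4A3 control and LPS). In the same order, edgeR gave an unadjusted p under 0.05 for 3358 of 15800, 3617 of 15590, 3206 of 15322 and 3581 of 15578 genes tested. With the replicate block 1, 2, 0 and 1 were called, where it called 23.6%, 28.1%, 14.8% and 21.8% of all genes. RFX5 rose with LPS in all 3 lines, by 0.75 in shNT (adjusted p = 7.43e-06), 0.66 in shNR4A2 (adjusted p = 0.00119) and 0.76 in shNR4A3 (adjusted p = 0.000114). In shNR4A3, RFXAP was lower with LPS (adjusted p = 0.00198) and CREB1 higher by 0.44 (adjusted p = 0.00992). The median log2 fold change of the 7 genes lay between -0.03 and 0.13 in the knockdown comparisons and between 0.09 and 0.12 with LPS.

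Of 14 genes upstream of CIITA, 2 of 12 tested rose in shNR4A2 control, 4 of 13 with LPS, 3 of 12 in shNR4A3 control and 5 of 13 with LPS. None fell, and 3.63%, 4.31%, 3.91% and 3.99% of all genes were called higher. With the replicate block, which called 23.6%, 28.1%, 14.8% and 21.8% of all genes, 5, 8, 5 and 7 of the list were called. IFNGR1, a chain of the interferon-γ receptor, rose in control by 0.61 in shNR4A2 (adjusted p = 0.00305) and 0.59 in shNR4A3 (adjusted p = 0.000705). IRF8, a myeloid transcription factor, rose by 0.65 in shNR4A3 control and with LPS by 0.62 in shNR4A2 and 0.79 in shNR4A3. IRF1, which binds the interferon-responsive CIITA promoter, rose in the LPS comparisons by 0.37 and 0.53. The median of the list was 0.14, 0.36, 0.23 and 0.32 in the 4 comparisons. IFNG itself, the ligand, had no count in any control library and was at 0 in 15 of 18 libraries. With LPS against control, 5, 5 and 6 of 13 rose and 3, 1 and 4 fell in shNT, shNR4A2 and shNR4A3. Of all genes, 24.9%, 19.3% and 28.1% were called in either direction and 11.6%, 9.23% and 13.1% higher. The replicate block called 9, 8 and 11 of the 13, against 32%, 30.1% and 39.4% of all genes. IFNGR2 and IRF4 rose and USF1 fell in all 3 lines, the last by 0.72, 0.81 and 0.83, and SOCS1, an inhibitor of this signalling, fell in shNT and shNR4A3.

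Among 9 genes of endosomal processing, which make the peptides and trim CD74, 1 rose in shNR4A2 at each treatment and 3 in shNR4A3 at each, and none fell, with list medians of 0.19, 0.39, 0.27 and 0.21. Of all genes, 3.63% and 4.31% were called higher in shNR4A2 and 3.91% and 3.99% in shNR4A3. With the replicate block, at its shares of all genes given for the upstream list, 4 and 5 of the 9 were called in shNR4A2 and 4 at each treatment in shNR4A3, so the lines cannot be ordered by these counts. CTSB rose in all 4 comparisons, by 0.65 and 0.77 in shNR4A2 and 0.85 and 0.86 in shNR4A3, and CTSZ rose by 0.95 and 0.85 in shNR4A3. IFI30, a lysosomal thiol reductase, rose by 1.85 in shNR4A3 control from a mean of 0.76 TPM in shNT, and LGMN by 1.49 with LPS. CTSS, the cathepsin best known for CD74 processing, was called in no knockdown or LPS comparison. With LPS the CD74 protease SPPL2A rose by 0.51, 0.66 and 0.60 in shNT, shNR4A2 and shNR4A3. CD83, which stabilises surface class II, rose by 5.41, 5.51 and 6.01, and the ubiquitin ligase MARCH1, which sends class II for degradation, fell by 1.30 in shNR4A2 and 1.60 in shNR4A3. Against shNT, CD83 rose with LPS by 0.48 in shNR4A2 (adjusted p = 0.0306) and 0.67 in shNR4A3 (adjusted p = 0.0104), and MARCH1 rose by 1.04 in shNR4A3 control (adjusted p = 0.0317). Of 6 costimulatory and surface genes, CD80, CD40 and CD274 rose with LPS in all 3 lines, and CCR7 rose in shNR4A2 by 2.65 and in shNR4A3 by 3.12. ICOSLG fell by 0.48 in shNT (adjusted p = 0.0373 by edgeR and 0.0745, not past the threshold, by DESeq2). CCR7 rose over shNT with LPS present by 1.71 in shNR4A2 and 1.59 in shNR4A3, and in shNR4A3 control CD86 rose by 1.26 and CD40 fell by 0.71. Against shNT, edgeR called 0 of 3 tested costimulatory and surface genes, 1 of 6, 2 of 3 and 1 of 6 (shNR4A2 control and LPS, then shNR4A3 control and LPS). DESeq2 called 0, 1, 2 and 2 and the replicate block 1, 2, 2 and 4. Of all genes edgeR called 6.45%, 6.96%, 7.23% and 6.45%, and the block 23.6%, 28.1%, 14.8% and 21.8%.

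Markers of other cell types were also summed. B cell markers summed to 5.47 to 17.3 TPM per library, led by PAX5, and MS4A1 was at 0 in 16 of 18 libraries. Their sum was 15.0 ± 2.63 TPM (SD, n = 3) in shNT control, 14.3 ± 1.79 in shNR4A2 control and 10.6 ± 1.09 in shNR4A3 control. With LPS it was 12.2 ± 0.951, 10.4 ± 2.60 and 7.95 ± 2.17 in the same order. PAX5 fell in shNR4A3 by 1.87 in control (adjusted p = 0.000357) and 1.74 with LPS (adjusted p = 0.00411), and no B cell marker was called in shNR4A2 against shNT without the block. The part of this shift in the class II values was not tested. Dendritic cell markers summed to 1.47 to 11.5 TPM, led by LAMP3, with FCER1A at 0 in 11 libraries and CLEC9A at 0 in 9. CLEC10A rose in shNR4A2 control (log2 fold change 1.85), shNR4A3 control (2.11) and shNR4A3 with LPS (2.64), and CD1C in shNR4A2 with LPS (2.09), all from below 1 TPM in shNT. DESeq2 did not call CLEC10A in shNR4A2 control (adjusted p = 0.0725) and gave no adjusted p for the other 3 of these results. The dendritic cell marker sum was 1.64 ± 0.271 TPM in shNT control, 4.73 ± 1.96 in shNR4A2 control and 3.92 ± 0.743 in shNR4A3 control. It was thus higher than shNT in both knockdown lines, as the summed class II level was. With LPS in shNT it went to 2.91 ± 0.348 TPM, while the summed class II level went from 308 to 330 TPM. Its part in the class II values was not tested. T cell markers reached at most 1.15 TPM and NK cell markers 1.68 TPM in sum.

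Class I genes, which present cytosolic peptides, were called in shNR4A2, and in shNR4A3 only under some alternatives. Of 10 class I and peptide loading genes, 4 rose in shNR4A2 control and 6 with LPS, led by HLA-F (log2 fold changes 2.56 and 2.26), against 0 in shNR4A3 at each treatment (0 and 3 at an unadjusted p under 0.05, 0 and 1 by DESeq2, and 0 and 3 with the replicate block, which called 8 and 9 in shNR4A2 and, of all genes, the shares given for the other lists). Of all genes, edgeR called 3.63% and 4.31% higher in shNR4A2 and 3.91% and 3.99% in shNR4A3. In shNR4A3, 3206 of 15322 genes in control and 3581 of 15578 with LPS had an unadjusted p under 0.05 by edgeR. In the direct comparison HLA-F was higher in shNR4A2 than in shNR4A3 by 2.15 in control (adjusted p = 0.00116) and 1.94 with LPS (adjusted p = 0.00292), and HLA-C by 0.49 in control (adjusted p = 0.048). There edgeR called 2 of the 10 class I genes in control and 1 with LPS, DESeq2 4 and 5, and the replicate block 7 and 7. Of all genes, edgeR called 3.08% and 2.33% there, and the block 11.6% and 23.6%.

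Within groups, members moved together to different degrees. After the group means were removed, Pearson's r over the 18 libraries was 0.87 between HLA-DRA and CD74, 0.81 between HLA-DRB1 and CD74, and 0.72 between HLA-DPA1 and HLA-DPB1, on log2 CPM. For CIITA the corresponding values were 0.37 with HLA-DRA, 0.11 with HLA-DRB1 and 0.30 with CD74, and the highest with a member was 0.55 with HLA-DQA1, another gene of few counts. These are descriptions over libraries that share lines, treatments and replicate numbers. Same-numbered libraries deviated together in most comparisons, so the 18 libraries are not independent even with the group means removed. Among 16925 expressed genes outside the list, the patterns most like HLA-DRA over the 18 libraries were those of PTTG1IP (r = 0.97), SH2B3 (0.97), ATP6V1B2 (0.96), SGK1 (0.96) and TMBIM6 (0.96). Those most like CIITA were BCLAF1P2 (0.81), GNA14 (0.77), C20orf27 (0.77), PLAC9 (0.74) and AC136475.1 (0.74).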

How the data were processed

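RNA-seq libraries of 3 THP-1 lines with and without LPS were used, 3 per group, which the study describes as independent experiments. The counts per gene are those the authors deposited, from reads trimmed with Trimmomatic 0.36, aligned to GRCh38 with STAR 2.5.2b and counted with featureCounts of Subread 1.5.2 per the labels. The treatment of multi-mapping reads is not given in the sources used here. TPM was computed from the deposited counts and lengths.

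Comparisons were tested with edgeR 4.0.16 (R 4.3.3; filterByExpr, TMM, quasi-likelihood F test) on the libraries of the groups compared, 6 for a pair and 12 for an interaction, with Benjamini-Hochberg adjustment over all genes tested and a call at an adjusted p under 0.05. Code was tested on simulated data. DESeq2 1.42.0 and other settings served as alternatives. Likeness between genes used log2 CPM with a prior count of 2.

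Same-numbered libraries deviated together (r above 0.1 in every pair) in all pairwise comparisons except LPS against control in shNT. There r was 0.256, 0.0598 and 0.133 for replicates 1, 2 and 3. The tests reported throughout carry no block. Blocked values are given for the member results whose call they change, and blocked counts for some of the other lists.

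The members and lists (factors at class II promoters, genes upstream of CIITA, endosomal processing, turnover, costimulation, class I, markers) were chosen with earlier results of these data known. All members are named in every comparison, with at most 4 called genes per other list and comparison by size of change.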

Additional observations from a re-analysis of the deposited data

How the results depend on the processing

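No call of a member turned sign under any alternative, over 260 alternative values of called members. Of members not called, 89 alternative values turned sign, all for results whose main log2 fold change was at most 0.317 in size. The number of members called moved with several settings. DESeq2 gave 3 in shNR4A2 control and 4 in shNR4A3 control. The replicate block gave 5 in shNR4A2 control, 5 in shNR4A2 against shNT with LPS, 5 in shNR4A3 against shNT with LPS, 1 and 2 in shNR4A2 against shNR4A3 (control and LPS), and 4 and 3 for LPS in shNR4A2 and shNR4A3, against 23.6%, 28.1%, 21.8%, 11.6%, 23.6%, 30.1% and 39.4% of all genes. For LPS in shNT, where same-numbered libraries did not all deviate together, it gave 3, with HLA-DRB1 added (adjusted p = 0.0426), against 32% of all genes. Without the filter on low counts 1 member was called in shNR4A2 against shNR4A3 at each treatment and 2 for LPS in shNR4A3. For LPS in shNT, library totals in place of TMM, an alternative chosen after seeing the data, gave 1, as did a fit over all 18 libraries. Summing near-identical class II genes gave 2 for LPS in shNR4A2. The mean share of HLA-DRB1 in the summed TPM of the members, within the range of 49.4% to 64.9% over libraries, became 63.3% with HLA-DRB5 and HLA-DRB6 added to it. With 1 library left out, 1 to 4 members were called in shNR4A2 control and 1 to 3 in shNR4A2 with LPS, 3 to 5 and 2 to 4 in shNR4A3, 0 to 0 in both direct comparisons and both interactions, and 1 to 2, 1 to 2 and 1 to 3 for LPS in shNT, shNR4A2 and shNR4A3.

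Over all genes, calls in shNR4A2 control went from 1019 to 1611 without the filter and 3733 with the replicate block, and in shNR4A2 with LPS from 1085 to 1843, 4385 and, over all 18 libraries, 1691. In shNR4A3 they went from 1108 to 2267 with the block in control, and from 1005 to 1839 without the filter and 3401 with the block under LPS. The direct comparisons went from 480 to 838 and 1800 in control, and from 362 to 1102, 3666, 1032 over all 18 libraries and 700 with DESeq2 under LPS. LPS in shNR4A2 went from 3050 to 4751 with the block and 4601 over all 18 libraries. Interactions went from 0 to 29 and 138 without the filter and to 8 and 22 with the block. With 1 library left out the ranges were 517 to 1128, 342 to 1477, 649 to 975 and 383 to 1693 for the knockdown comparisons, 249 to 470 and 94 to 217 for the direct ones, and 0 to 8 and 0 to 44 for the interactions. The cause of these shifts was not tested. HLA-DMB, HLA-DQA1, HLA-DPB1 and CIITA rest on few counts in each library.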
